A study of Mus musculus with 4 samples.

Results

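The genes described here are 6 markers of the pyramidal neurons of hippocampal fields CA3 and CA2: Coch, Bok, Cpne4, Rgs14, Amigo2 and Pcp4. They were taken by symbol from a table of 15713 genes, and all 6 were in it. Hippocampal RNA was sequenced from mice of the inbred strain C57BL/6 aged 11 to 12 weeks. The 2 ATO libraries came from mice labelled as developmentally exposed to ATO at 5000 ppb, and the 2 control libraries from mice labelled untreated. The labels do not spell out ATO, while the title of the series speaks of offspring exposed to arsenic; no allele, transgene or sorting step is named for either group. Nothing in the labels says that replicates came from separate animals, so a p-value here reflects only how far these samples spread, which may be technical.

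CA3 pyramidal neurons receive the mossy fibres of the dentate gyrus and excite one another and CA1 neurons. The small field CA2, between CA3 and CA1, is known for synapses on its proximal dendrites that resist long-term potentiation and for its part in social memory. Rgs14, Pcp4 and Amigo2 are widely used to outline CA2 in sections of the mouse brain, whereas Bok and Coch are used for CA3, and Cpne4 is taken here as enriched in these fields. Every one of these genes is also transcribed in cells elsewhere, and in bulk tissue fewer cells of a type and less RNA per cell cannot be told apart.

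Of the 6 markers, only Coch passed the test between the groups, and it rose 2.30-fold in ATO (95% interval 1.74 to 3.04). Bok, Cpne4, Rgs14, Amigo2 and Pcp4 did not pass, with fold changes between 0.891 and 1.14. Thus 1 of 6 passed at a Benjamini-Hochberg adjusted p under 0.05 in edgeR's quasi-likelihood test, against 3.73% of all 15713 genes in either direction and 2.87% in the direction of higher levels in ATO. The median log2 fold change of the 6 was 0.08, against -0.00496 over all genes.

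To show the sequence in front of the gene that passed and of genes that did not, the stretches before the annotated starts of Coch, Bok and Pcp4 are given 5′ to 3′ on the plus strand. They come from RefSeq on build GRCm38.p6, at chr12:51593091-51593282 for Coch, chr1:93685325-93685574 for Bok and chr16:96467356-96467605 for Pcp4. The Coch stretch, of 192 bases against 250 for the others, ends before the earliest RefSeq start of the gene, so it leaves out 1 GC box and the metal response element core that lie nearer to the start used for the promoter window. Capitals mark matches on either strand to the GC box (GGGCGG), to the core of the metal response element (TGCACNC or TGCGCNC) or to the hexamer AGAACA of the glucocorticoid response element.
Coch: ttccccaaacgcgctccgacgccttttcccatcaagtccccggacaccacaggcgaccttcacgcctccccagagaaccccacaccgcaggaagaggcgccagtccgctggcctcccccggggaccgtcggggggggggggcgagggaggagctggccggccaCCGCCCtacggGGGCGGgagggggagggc
Bok: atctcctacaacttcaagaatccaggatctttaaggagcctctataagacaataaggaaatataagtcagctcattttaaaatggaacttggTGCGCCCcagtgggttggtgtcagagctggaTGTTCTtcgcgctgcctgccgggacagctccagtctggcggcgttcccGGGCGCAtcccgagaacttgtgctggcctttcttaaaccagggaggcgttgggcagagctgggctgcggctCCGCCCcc
Pcp4: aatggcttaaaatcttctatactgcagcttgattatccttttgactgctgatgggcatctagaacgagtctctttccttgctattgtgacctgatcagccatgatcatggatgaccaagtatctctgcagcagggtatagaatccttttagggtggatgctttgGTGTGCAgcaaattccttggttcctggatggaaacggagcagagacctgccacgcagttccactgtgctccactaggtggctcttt

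Promoter windows of 300 bases, from 250 before the gene start to 50 after it, were listed for 5 of the 6 genes; Rgs14 was not matched. The Coch window held 73.7% G plus C and 32 CpG dinucleotides. The window of Amigo2, which did not pass, held more CpG (46, at 83.3% G plus C), and those of Bok (16, at 56.3%) and Pcp4 (6, at 48.7%) held fewer. The metal response element core was found in the first window of all 5 genes and in 25.6% of the 27025 promoter windows of that length, 1 for each gene symbol. The Coch window had 3 GC boxes, against 5 in that of Amigo2, a motif in 35.9% of windows. It also had 1 match on either strand to the TATA box letters (TATAAA), a motif in 14.2%. That match lay at position 3 after the gene start used for the window, not before it. The core of the antioxidant response element (TGACNNNGC) was in 0 of the 5 windows and in 12.5% of all, and the glucocorticoid hexamer, in 19.0% of all, was in 1, that of Bok. Such letter matches describe the windows and do not show binding, and windows rich in G and C hold GC-rich motifs more often.

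The libraries held 17251032 and 16696546 counts in ATO and 14832214 and 15078919 in control, so that 1 count was worth between 0.0580 and 0.0674 CPM. In normalised CPM, counts are scaled by library size and edgeR's TMM factor. The test called 586 genes, 451 higher and 135 lower in ATO. Without control replicate 2 it called 222 genes (180 higher, 42 lower).

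Of the markers that act outside the cell or at its surface, Coch rose and Amigo2 did not pass. Coch (ENSMUSG00000020953, chromosome 12 from 51593341 to 51605771, plus strand, GRCm38) encodes cochlin, a secreted extracellular matrix protein best known from the inner ear. It was counted 214 and 186 times in ATO and 82 and 70 times in control, or 12.3 and 11.2 normalised CPM in ATO and 5.56 and 4.64 in control. Both ATO libraries lay above both controls, by a margin wider than the gap inside either group. The means were 11.7 ± 0.769 CPM in ATO and 5.10 ± 0.655 in control (SD, n = 2 each), and the log2 fold change was 1.20 ± 0.19 (SE, edgeR quasi-likelihood test, adjusted p = 0.00189). Among all genes 1.45% had an absolute log2 fold change at least as large. Pooled over the libraries of each group, 400 Coch counts in ATO against 152 in control gave a depth-corrected ratio of 2.32 (exact binomial 95% interval 1.92 to 2.81, covering counting error only).

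The Coch call held without each library in turn, with log2 fold changes from 1.07 without control replicate 2 (adjusted p = 0.0345) to 1.34 without control replicate 1 (adjusted p = 0.0105). In the authors' deposited table Coch had a log2 fold change of 1.19 and an adjusted p of 0.00222 and carried the authors' mark for differential expression, which 0.974% of genes carried. The other 5 markers were not marked in the authors' deposited table, with adjusted p from 0.357 to 0.859.

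Amigo2 (ENSMUSG00000048218, chromosome 15 from 97244125 to 97247287, minus strand) encodes an adhesion protein with leucine-rich repeats and an immunoglobulin domain. Its levels were 46.2 and 40.3 normalised CPM in ATO and 39.3 and 36.6 in control. The ATO libraries lay above the controls, but ATO replicate 2 was nearer to control replicate 1 than to the other ATO library. The log2 fold change was 0.19 ± 0.10 with a 95% interval from -0.03 to 0.41 (edgeR adjusted p = 0.345). When 1 library was left out it ran from 0.09 (without ATO replicate 1) to 0.28 (without ATO replicate 2). The exons of Amigo2 share 58 bases with the gene Pced1b on the opposite strand, and the use of strand in counting is not given in the sources used here.

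The markers whose proteins bind calcium or calmodulin, Pcp4 and Cpne4, did not pass. Pcp4 (ENSMUSG00000090223, chromosome 16 from 96467606 to 96525793, plus strand) encodes PEP-19, a small protein that binds calmodulin through an IQ motif. It stood at 105 and 91.2 normalised CPM in ATO and at 97.2 and 93.2 in control. The controls fell between the ATO libraries, so the groups overlapped. Its log2 fold change was 0.04 ± 0.09 with a 95% interval from -0.14 to 0.23 (edgeR adjusted p = 0.844). It was -0.06 without ATO replicate 1 and 0.14 without ATO replicate 2. Annotated exons of Igsf5, on the same strand, share 243 bases with those of Pcp4.

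Cpne4 (ENSMUSG00000032564, chromosome 9 from 104547286 to 105034544, plus strand) encodes a copine, a protein that binds membranes when calcium rises. Its levels were 128 and 129 normalised CPM in ATO and 121 and 115 in control. The groups did not overlap, and the ATO libraries were close to each other. The log2 fold change was 0.12 ± 0.08, with a 95% interval from -0.04 to 0.29 (adjusted p = 0.415).

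Rgs14 (ENSMUSG00000052087, chromosome 13 from 55369732 to 55384687, plus strand) encodes a scaffold of G protein and Ras signalling that limits long-term potentiation in CA2 neurons. It was at 75.6 and 85.6 normalised CPM in ATO and at 85.4 and 95.4 in control. The higher ATO library and the lower control library were level with each other. Its log2 fold change of -0.17 ± 0.09, the negative one among the 6, had a 95% interval from -0.36 to 0.02 (edgeR adjusted p = 0.351). When 1 library was left out it ran from -0.26 (without ATO replicate 2) to -0.08 (without ATO replicate 1).

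Bok (ENSMUSG00000026278, chromosome 1 from 93685660 to 93695764, plus strand) encodes a member of the BCL2 family that can promote apoptosis and binds inositol trisphosphate receptors. Its levels were 92.2 and 95.3 normalised CPM in ATO and 90.2 and 92.6 in control. The 4 libraries lay within 0.0791 of each other on the log2 scale. The log2 fold change was 0.04 ± 0.08, with a 95% interval from -0.13 to 0.20 (adjusted p = 0.856).

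**Figure D1:**
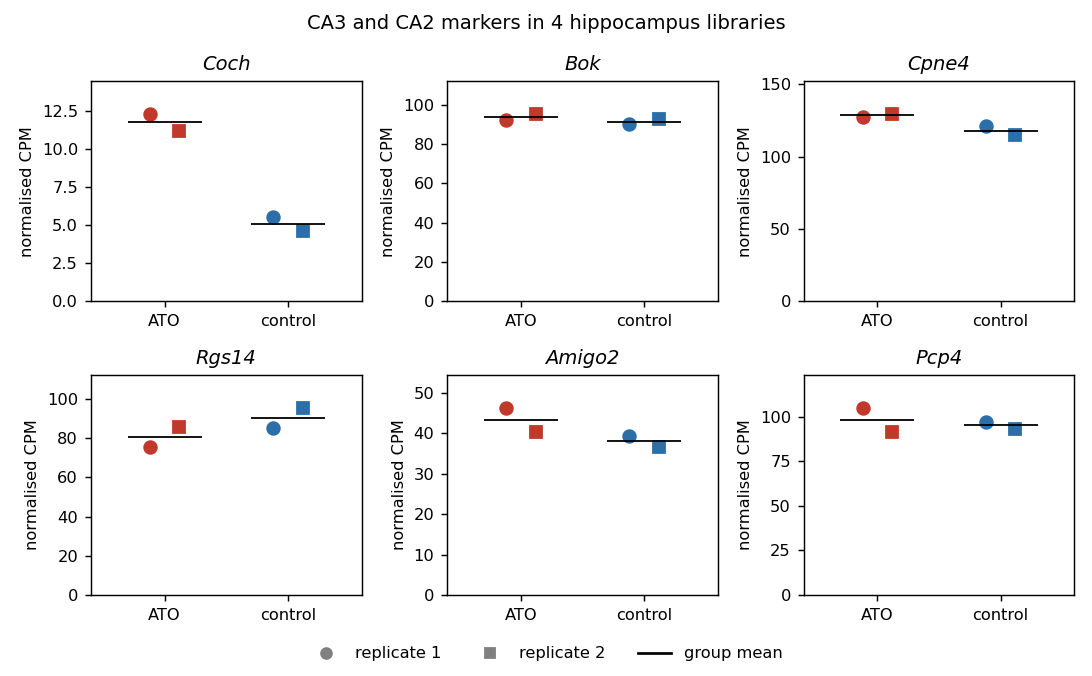
Normalised CPM of each of the 6 markers in the ATO libraries (red) and the control libraries (blue); circles are replicate 1, squares replicate 2 and lines group means. Coch lies at 11.2 to 12.3 in ATO and 4.64 to 5.56 in control, while the other panels show groups that overlap or lie close together.

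The groups did not overlap for 3 of the 6 markers, Coch, Amigo2 and Cpne4, each with the ATO libraries higher. Over all genes this was so for 48.1% in either direction and 24.8% with ATO higher. At an unadjusted p under 0.05 the count was again 1 of 6, against 18.1% of all genes. None of the 5 markers other than Coch passed in DESeq2's Wald test, in limma-voom or in any of the 11 alternatives run. The 95% interval of Coch began at log2 0.80, and those of the other markers ended at or below 0.41; the difference between markers was not itself tested.

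**Figure D2:**
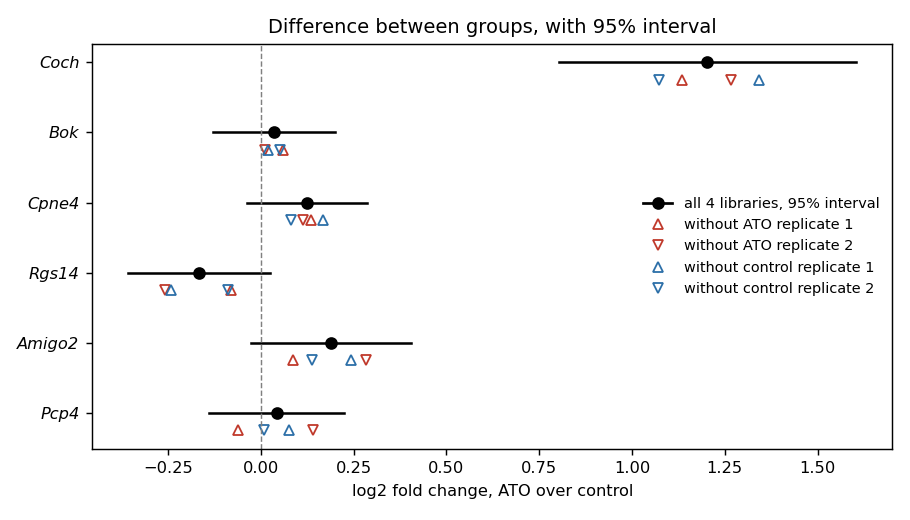
Log2 fold change of ATO over control for each marker with its 95% interval (black), and the value when 1 library was left out (open triangles). For Coch the values without 1 library run from 1.07 to 1.34, and for Pcp4 they lie on both sides of 0.

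The libraries of a group were then compared with each other. For Coch the log2 ratio of replicate 1 over replicate 2 was 0.13 in ATO (95% counting interval -0.16 to 0.43) and 0.26 in control (-0.21 to 0.74). Its difference between the groups was 4.58 times the wider of these gaps. For Bok the ratios were -0.05 in ATO and -0.04 in control, with intervals that include 0. Cpne4 had -0.02 in ATO and 0.08 in control, also with intervals that include 0. For Coch, Bok and Cpne4 the gaps within groups thus did not exceed counting error.

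Rgs14 differed between libraries of a group by more than counting error in both groups. Its log2 ratio of replicate 1 over replicate 2 was -0.18 in ATO (95% counting interval -0.29 to -0.07) and -0.16 in control (-0.27 to -0.05). In ATO the same held for Pcp4, at 0.20 (0.10 to 0.30), and for Amigo2, at 0.20 (0.05 to 0.35). In control the intervals of these genes reached 0, with 0.06 for Pcp4 (-0.05 to 0.17) and 0.10 for Amigo2 (-0.07 to 0.27). So the gap between the groups was smaller than the wider gap inside a group for Rgs14, Amigo2, Pcp4 and Bok, at 0.927, 0.969, 0.214 and 0.764 times that gap.

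Gaps of this size were common across the table. In ATO 34.5% of all genes had a replicate gap at least as large as that of Rgs14, 31.6% as large as that of Amigo2 and 30.7% as large as that of Pcp4. The median absolute log2 gap over all genes was 0.12 in ATO and 0.15 in control, and genes with fewer counts have larger gaps from counting alone.

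**Figure D3:**
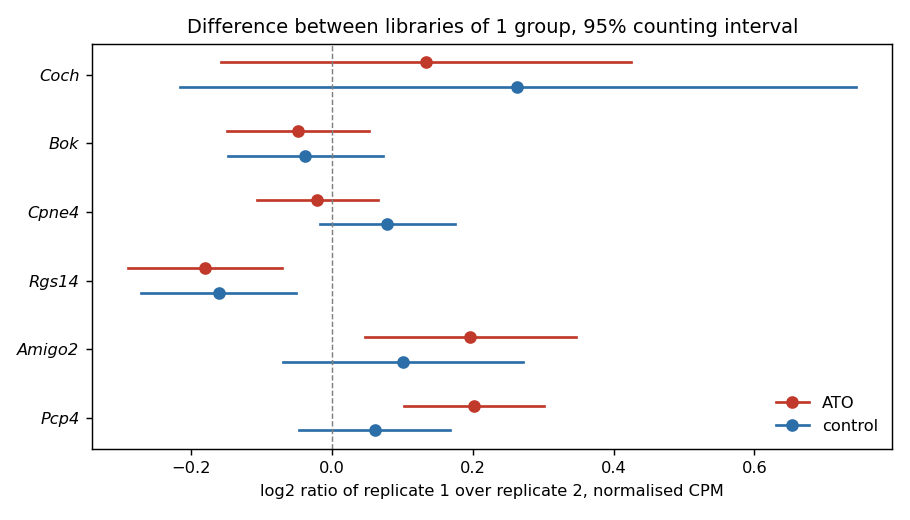
Log2 ratio of replicate 1 over replicate 2 in ATO (red) and in control (blue) for each marker, with exact binomial 95% intervals that cover counting error only. The intervals of Rgs14 exclude 0 in both groups and those of Amigo2 and Pcp4 in ATO, while those of Coch, Bok and Cpne4 include 0 in both.

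Ratios of counts inside a library do not depend on library size. For every 100 counts of Bok, the other CA3 marker, there were 13.3 and 11.7 counts of Coch in ATO against 6.17 and 5.01 in control. Against 100 counts of Pcp4 the Coch counts were 11.7 and 12.3 in ATO and 5.72 and 4.98 in control. The ratio to each of the other 5 markers was higher in both ATO libraries than in both controls, by 2.03-fold for Amigo2 to 2.58-fold for Rgs14. These 5 ratios share the same Coch counts and the other markers changed little, so they restate the Coch difference and are not separate evidence. Among the CA2 markers, 100 counts of Amigo2 came with 164 and 212 counts of Rgs14 in ATO and with 217 and 261 in control. That ratio was lower in both ATO libraries, but the gap between the nearest libraries of the groups was small beside the gaps within groups.

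Levels of different genes were compared in the FPKM values that the authors deposited, which are scaled by gene length and depth. Pcp4 had the highest level of the 6 in every library, at 103 and 88.3 FPKM in ATO and 93.9 and 90.7 in control, above 97.7% of all genes on average. Bok followed at 50.5 and 51.4 FPKM in ATO and 48.6 and 50.3 in control. Cpne4, at 23.4 FPKM in both ATO libraries, lay above Rgs14 there, which had 17.97 and 20.05. In control Cpne4 had 21.8 and 20.8 FPKM and Rgs14 19.98 and 22.49, so the levels of these genes overlapped and had no order. Amigo2 had 14.7 and 12.7 FPKM in ATO and 12.3 and 11.6 in control. Coch was lowest in every library, at 4.13 and 3.71 FPKM in ATO and 1.84 and 1.54 in control, and its mean level was above that of 35.2% of all genes.

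Other genes enriched in CA3 and CA2 were counted against the 3.73% of all genes that passed. Of 11 other CA3 genes tested, 0 rose and 1 fell, with a median log2 fold change of 0.05; 1 of them had an unadjusted p under 0.05. The one that fell was Cpne7, a copine gene like Cpne4, at 382 and 378 normalised CPM in ATO and 445 and 512 in control (log2 -0.33 ± 0.08, edgeR adjusted p = 0.0383). Cpne7 did not pass when ATO replicate 1 (adjusted p = 0.109), ATO replicate 2 (0.110) or control replicate 2 (0.191) was left out. The next 3 by p did not pass: Nectin3, a cell adhesion gene, at 0.17 ± 0.09, the kainate receptor subunit gene Grik4 at -0.14 ± 0.08, and Nrip3 at 0.12 ± 0.08.

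Of 12 other CA2 genes, 1 rose and 0 fell, with a median log2 fold change of 0.10, and 2 had an unadjusted p under 0.05. Sostdc1, which encodes a secreted antagonist of BMP and Wnt signalling, was at 13.3 and 19.1 normalised CPM in ATO and 2.103 and 2.119 in control (log2 2.93 ± 0.23, edgeR adjusted p = 2.58e-06). The choroid plexus markers given below were also higher in both ATO libraries. Whether the Sostdc1 difference comes from CA2 neurons or from other tissue was not tested. Ptpn5, the gene of the striatal-enriched phosphatase STEP, did not pass at -0.17 ± 0.08. Ccdc3 stood at 0.33 ± 0.14 and the AMPA receptor auxiliary subunit gene Cacng5 at 0.24 ± 0.16, neither past the threshold. Of 8 genes of the perineuronal nets that surround CA2 neurons, 0 passed in edgeR, 2 had an unadjusted p under 0.05, the link protein gene Hapln1 (0.23 ± 0.10) and the aggrecan gene Acan (-0.52 ± 0.24), and the median was -0.07.

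**Figure D4:**
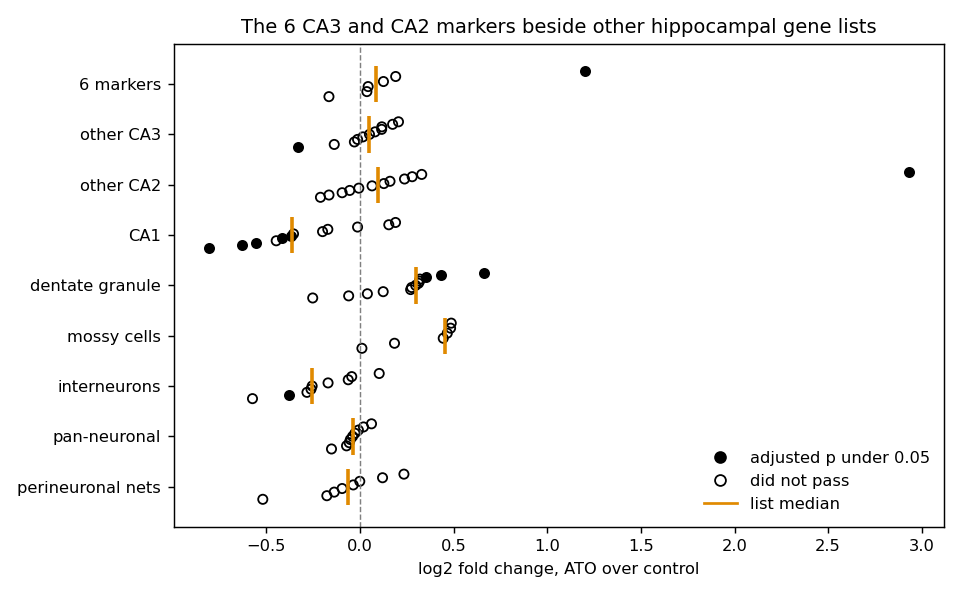
Log2 fold change of ATO over control for the 6 markers and for genes of 8 other lists of the hippocampus (filled, adjusted p under 0.05; open, did not pass; orange lines, list medians). The medians of the 6 markers and of the other CA3 and CA2 lists lie between 0.05 and 0.10, that of CA1 at -0.36 and that of dentate granule neurons at 0.30.

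Genes related to single markers were set beside them. Among 11 genes of RGS relatives of Rgs14 and of G proteins, GTPases and kinases linked to its protein, 1 rose, Gnai3, which encodes a G protein subunit that RGS14 binds (43.0 and 47.5 normalised CPM in ATO, 35.1 and 32.1 in control, log2 0.43 ± 0.10, adjusted p = 0.0298). Gnai3 did not pass with ATO replicate 2 (adjusted p = 0.156) or control replicate 2 (0.165) left out, nor in DESeq2's Wald test (0.0793). Rap1a at 0.19 ± 0.09, Rap2a at 0.12 ± 0.08 and Rgs10, a relative of Rgs14, at -0.15 ± 0.12 did not pass, and the list median was 0.02.

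Of 14 relatives and partners of Bok in the BCL2 family, 1 rose, the anti-apoptotic gene Mcl1, at 91.1 and 82.1 normalised CPM in ATO and 65.4 and 71.5 in control (log2 0.34 ± 0.09, adjusted p = 0.0436). It was lost without ATO replicate 1 (adjusted p = 0.358), control replicate 1 (0.135) or control replicate 2 (0.0781), and in DESeq2's Wald test (0.0984). The pro-apoptotic gene Pmaip1 at 1.17 ± 0.32 (adjusted p = 0.0598), Bcl2l1 at 0.18 ± 0.08 and Bcl2 at 0.26 ± 0.14 did not pass, and the median was 0.09. Without ATO replicate 2 the list had 2 calls, 1 higher and 1 lower.

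Among 9 calmodulin and IQ-motif genes related to Pcp4, 0 passed in edgeR and 2 had an unadjusted p under 0.05, the growth cone gene Gap43 (-0.33 ± 0.09) and Pcp4l1, the closest relative of Pcp4 (0.25 ± 0.10). Gap43 passed without ATO replicate 2 (adjusted p = 0.00263). Of 8 copine genes beside Cpne4, Cpne7 fell as given above and the others did not pass, among them Cpne5 at -0.21 ± 0.13 and Cpne1 at -0.51 ± 0.33. Amigo1 and Amigo3, the relatives of Amigo2, did not pass (edgeR adjusted p = 0.840 and 0.938). For the calmodulin and perineuronal net lists, DESeq2's Wald test and limma-voom also gave 0.

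Markers of the neighbouring fields CA1 and dentate gyrus were also counted. Of 12 CA1 markers 5 fell, among them Dcn, Pex5l, Wfs1 and Ccn3, with a list median of -0.36, against 0.859% of all genes that fell. In DESeq2's Wald test 2 of them fell, and 7 of the 12 had an unadjusted p under 0.05 in edgeR. Of 13 dentate granule markers 3 rose, Trpc6, Rasl10a and Npnt, with a median of 0.30, against 2.87% of all genes that rose. In DESeq2's Wald test 1 rose, and 8 of the 13 had an unadjusted p under 0.05 in edgeR. For both lists the counts that passed changed when single libraries were left out, and the CA1 calls were all lost without control replicate 2. When scaled by library size only, 2 CA1 markers fell and 1 dentate granule marker rose. The summed CA1 markers were at 712 and 973 normalised CPM in ATO and 1042 and 1085 in control, whereas the 6 CA3 and CA2 markers summed to 459 and 453 in ATO and 439 and 437 in control. Whether these lists differ from the 6 markers was not tested. Of 9 interneuron markers 1 fell, Npy (-0.38 ± 0.09, edgeR adjusted p = 0.0419), which was lost when any 1 of the 4 libraries was left out. The interneuron list had a median of -0.26, and 5 of the 9 had an unadjusted p under 0.05 in edgeR. For 7 of the 9 the groups did not overlap and ATO was lower, against 23.4% of all genes. In DESeq2's Wald test 0 interneuron markers fell. Of 6 mossy cell markers and 9 pan-neuronal genes 0 passed in edgeR, DESeq2 or limma-voom, with 1 and 0 at an unadjusted p under 0.05 and medians of 0.46 and -0.04.

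Markers of tissues that border the hippocampus moved in the same libraries as Coch and Sostdc1. All 12 choroid plexus markers rose, with a median log2 fold change of 4.64, and summed to 3256 and 4087 normalised CPM in ATO and 132 and 205 in control. Of 8 ependymal markers 6 rose (3 in DESeq2's Wald test), with sums of 51.0 and 36.2 in ATO and 18.7 and 21.9 in control. Their median log2 fold change was 1.21, and all 8 had an unadjusted p under 0.05 in edgeR. Of 8 leptomeningeal markers 1 rose, Igf2, and the sums were 88.6 and 53.9 in ATO and 53.7 and 26.4 in control. All 8 had a higher estimate in ATO, with a median of 0.82, and 6 had an unadjusted p under 0.05 in edgeR. The counts of ependymal and leptomeningeal markers that rose changed when single libraries were left out. Each marker of these 3 lists had at least 1 count in every library, but many control counts of choroid plexus markers were low, so their fold changes are imprecise. With at least 10 counts required in every library, 4 choroid plexus and 4 ependymal markers passed.

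Inside each group replicate 1 had the higher Coch level and the higher leptomeningeal sum but the lower choroid plexus sum. The Coch gaps within groups were inside counting error, so no order is read from them. The leptomeningeal sums of ATO replicate 2 and control replicate 1 were nearly equal, at 53.9 and 53.7 CPM. Single leptomeningeal markers differed between these libraries in both directions. The part of these tissues in the differences of Coch and Sostdc1 was not tested.

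**Figure D5:**
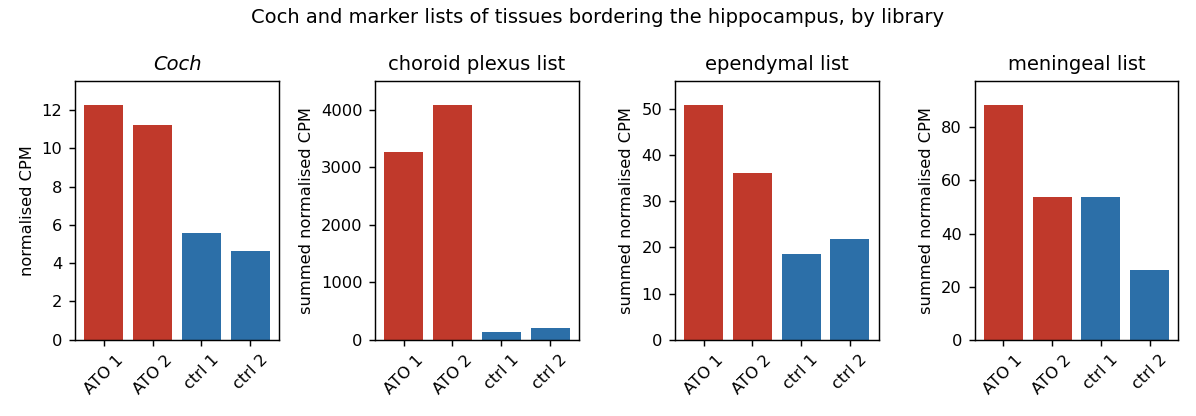
Normalised CPM of Coch and summed normalised CPM of the choroid plexus, ependymal and leptomeningeal lists in each library (ATO red, control blue). All 4 quantities are higher in ATO on average, but the meningeal sums of ATO replicate 2 and control replicate 1 are alike at 53.9 and 53.7.

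Lists of brain regions next to the hippocampus and of glia were counted too. Of 8 striatal and septal markers 1 rose, Ppp1r1b (0.46 ± 0.09, adjusted p = 0.0136), which did not pass without ATO replicate 2 (0.0639) or control replicate 1 (0.0722). Of 8 thalamic and habenular, 7 neocortical and 12 glial and vascular markers 0 passed in edgeR, DESeq2 or limma-voom, and 1, 2 and 4 had an unadjusted p under 0.05. Their medians were 0.06, -0.17 and -0.03. Leaving out single libraries gave at most 1, 1 and 2 calls in these lists: 1 thalamic without ATO replicate 1, ATO replicate 2 or control replicate 1, 1 neocortical without ATO replicate 2, and among glial and vascular markers 1 without ATO replicate 2 and 2 without control replicate 1.

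On chromosome 12 the 3 tested genes on each side of Coch, between 50341231 and 51829536, did not pass. Their log2 fold changes ran from -0.15 to 0.16, with adjusted p from 0.520 to 0.995. The annotation shows no other gene that overlaps Coch.

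The genes with profiles most like those of the markers of widest range, Coch and Rgs14, were found by the Euclidean distance between log2 CPM centred on the mean of the 4 libraries, among the 10387 genes with a mean of at least 10 CPM; Coch itself was below that level. Predicted genes, genes with clone-type symbols and pseudogenes were left out of this ranking. Nearest to Coch among the rest was Nfya, a subunit gene of the CCAAT-binding factor NF-Y, at a distance of 0.123. Nfya had 32.8 and 33.5 normalised CPM in ATO and 16.1 and 13.4 in control. Ucp2, which encodes a mitochondrial uncoupling protein, was at a distance of 0.185 and the copper transporter gene Slc31a1 at 0.208. Nearest to Rgs14 were Khdrbs3, an RNA-binding protein gene (0.0204), the protein kinase A subunit gene Prkar1b (0.0217) and the intraflagellar transport gene Ift88 (0.0222). With 4 libraries many genes share a profile, so this is a description of these libraries.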

How the data were processed

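The authors deposited 1 table with, per the file headers, a read count and an FPKM value per gene and library, and the authors' log2 fold change, p-value and adjusted p-value of ATO over control. Per the submitters' processing notes the build was GRCm38 and the tools HISAT2 2.0.1, HTSeq 0.6.1, cutadapt 1.9.1, FastQC 0.10.1, limma 3.47.15 and R 4.1.0; the sources used here do not give their roles, settings or use of strand. Each gene of the table had over 1 CPM in at least 2 libraries. FPKM served only to compare levels between genes.

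The main test was edgeR 4.0.16 under R 4.3.3 on the deposited counts (filterByExpr, which removed 0 genes; TMM; quasi-likelihood test of ATO against control, 2 libraries each, no covariate; Benjamini-Hochberg over 15713 genes). "Rose", "fell" and "passed" mean an adjusted p under 0.05. SE is the log2 fold change divided by the square root of F. Alternatives were other size factors, filters, DESeq2 1.42.0, limma-voom (limma 3.58.1), a replicate block and leaving out each library. The tests were tried on simulated counts. Positions are from GENCODE vM21 (GRCm38).

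The 6 markers and 20 further lists (182 tested genes beside the 6) were chosen with earlier results of these data known. Named are the 6 markers, up to 4 genes of smallest p in the lists described, listed genes that passed (choroid plexus and ependymal ones are counted only), and the 3 genes nearest in profile to the 2 markers of widest range. A few listed genes are not reported here, so the AMIGO list is given in part. Counting intervals are exact binomial at 95%.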

Additional observations from a re-analysis of the deposited data

How the results depend on the processing

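Coch passed under all 11 alternatives, with log2 fold changes from 1.07 to 1.34 and adjusted p from 6.23e-05 to 0.0345, and the other 5 markers passed under none. When 1 library was left out, Pcp4 ran from -0.0616 (without ATO replicate 1) to 0.14, the only marker whose direction changed. The count of genes that passed, 586, became 316 in DESeq2's Wald test and ran from 222 to 611 when 1 library was left out; the 33 listed genes that passed became 17 to 47. With the replicate number as a block, 1366 genes and 53 listed genes passed. The labels do not say that a number marks a shared batch or animal, so whether same-numbered samples share more than the number is unknown; over genes the replicate difference in ATO correlated with that in control at 0.12. The gaps within groups moved by less than their counting intervals under the other size factors. Where calls were lost or gained the cause was not tested. With 2 libraries per group and 70 to 82 Coch counts in each control, depth and replicate number limit the precision of Coch, and differences inside the intervals given for the other 5 markers could not be detected.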
